A study of Mus musculus with 5 samples.

Results

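Immediate early genes are transcribed within minutes of a stimulus, without new protein synthesis, because the factors that switch them on are already in the cell and are activated by phosphorylation. Many encode transcription factors, among them the Fos and Jun proteins, which pair to form AP-1, and others encode brakes on the kinases that induced them. In hematopoietic stem cells (HSCs) they are known to respond to cytokines and to handling of the tissue. The 10 genes described here were a named list, Fos, Fosb, Jun, Junb, Egr1, Egr2, Ier2, Dusp1, Nr4a1 and Atf3, of 18193 genes that had a probeset of their own. All 10 were measured, by 12 probesets, with a pair each for Jun and Egr2, and each gene is given by the probeset with the highest mean unless another is named.

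RNA came from CD11A+ HSCs (n = 2 arrays) and CD11A- HSCs (n = 3 arrays) of untreated male C57/Bl6 bone marrow, both within one gate for EPCR+, CD150+ and CD27+ cells that are also KIT+ and SCA-1+ and lack CD34, FLK2 and lineage markers. CD11A+ replicate 1 (1274 cells) and CD11A- replicate 2 (1300 cells) were sorted on one day, called day A here, from mice of 8 to 12 weeks. CD11A+ replicate 2 (2293 cells) and CD11A- replicate 3 (1803 cells) were sorted on day B at 10 weeks, and CD11A- replicate 1 (1011 cells) alone on day C at 6 weeks. Each sort pooled the KIT-enriched marrow of 1 to 2 mice, and whether any of the arrays came from the same mice is unstated, so p-values measure array-to-array spread, which may be technical. The authors deposited log2 values per probeset from RMA, which puts all arrays on a like scale (medians of 5.55 to 5.62 over all probesets). A difference of 1 is a doubling, and the number of arrays sets the precision.

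Kit, Slamf1 and Procr, which encode KIT, CD150 and EPCR of the gate, and Cd27 lay above the array median on all 5 arrays. So did Cd34 and Flt3, whose products the gate selects against. Both were higher in CD11A+ HSCs on days A and B, Cd34 by 1.31 and 0.52 and Flt3 by 0.55 and 1.11, and Slamf1 was lower by 0.51 and 1.54. The HSC-associated factors Mecom and Hlf differed by -1.22 and -0.92 on day A and by -0.16 and 0.16 on day B. Meis1, also HSC-associated, differed by only -0.16 on day A and 0.02 on day B. Itgal, which encodes CD11A, had 8.49 and 5.67 in CD11A+ HSCs, against 5.43, 5.27 and 5.15 in CD11A- HSCs of days A, B and C. Of 12 genes of mature granulocytes and macrophages, cells that the gate removes, the granule and calprotectin genes Camp, Ltf, Lcn2, Ngp, S100a8 and S100a9 were brighter on day A, while Lyz2, Csf1r, Mmp8 and Itgam spanned under 1 log2 unit. The mean of the 12 genes was 8.55 and 6.19 in CD11A+ HSCs of days A and B, against 7.59, 5.57 and 5.67 in CD11A- HSCs of days A, B and C, and Camp, which had the largest overall difference among them, had 11.72 and 6.81 in CD11A+ against 9.67, 5.36 and 5.63 in CD11A- HSCs. In sorted bulk samples, fewer cells of a type and less RNA per cell cannot be told apart. Lists of B cell, T and NK cell, erythroid and megakaryocyte genes had array means of 4.65 to 5.95, 4.71 to 4.88, 5.03 to 5.68 and 8.26 to 9.59, each highest in CD11A+ replicate 1.

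The immediate early genes differed in how widely they varied and in what the variation followed. Fos, Fosb and Jun spanned 5.91, 2.97 and 3.36 log2 units over the 5 arrays. For Egr1, Junb and Nr4a1 both CD11A+ arrays lay below every CD11A- array. Some genes varied both ways: Ier2 and Dusp1 changed with the day and were lower in CD11A+ HSCs on days A and B. Egr1 also changed with the day in CD11A- HSCs. The median span of the 10 genes was 1.51 log2 units, against 0.63 over all genes, and the span of Fos was the 12th widest of 18193. The mean over the 10 genes was 7.80 and 6.86 in CD11A+ HSCs of days A and B, against 8.17, 7.18 and 8.72 in CD11A- HSCs of days A, B and C. Within each subfraction day B was thus the lowest, and within days A and B the CD11A+ array lay below the CD11A- array.

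**Figure D1:**
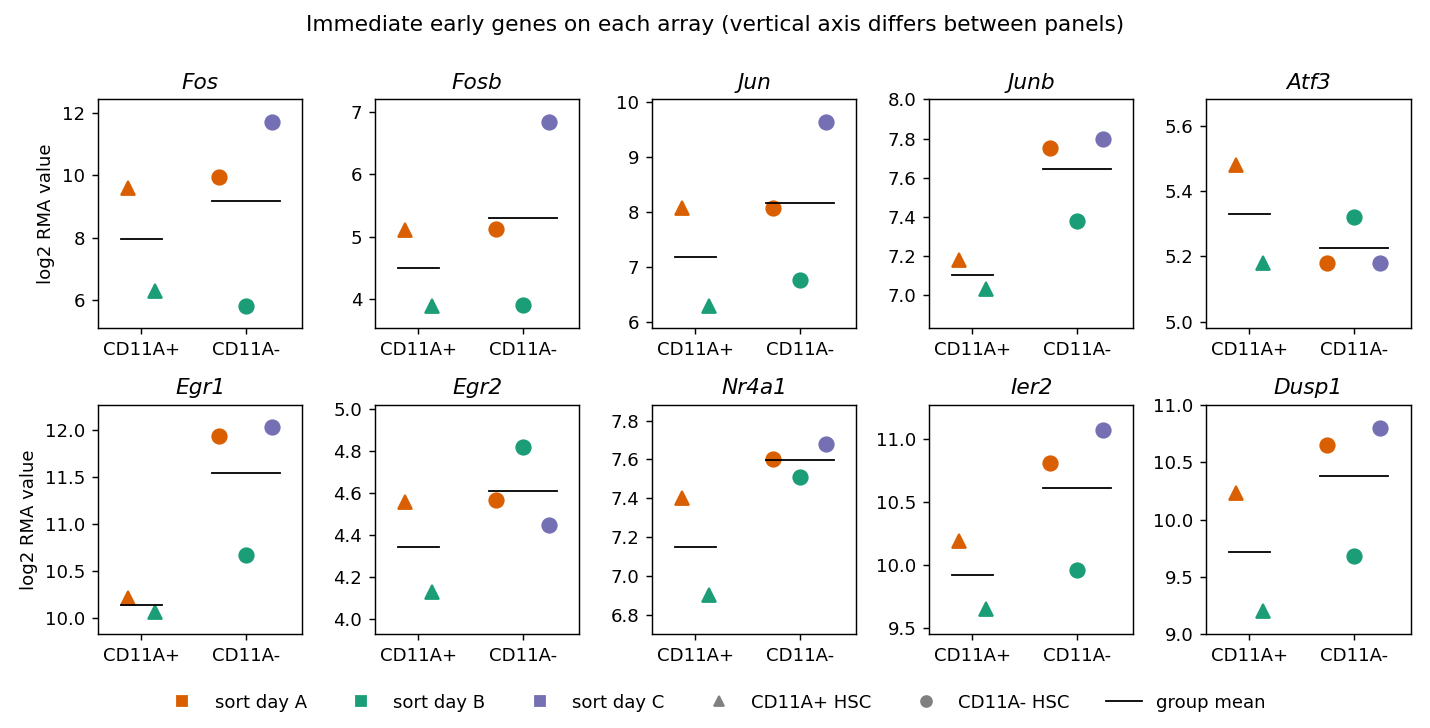
The log2 RMA value (vertical axis, own scale in each panel) of each immediate early gene in CD11A+ HSCs (triangles, n = 2) and CD11A- HSCs (circles, n = 3), coloured by sort day, with bars at the group means. Fos is highest on day C (11.72) and lowest on day B (6.30 and 5.81), while both CD11A+ arrays lie below every CD11A- array for Egr1, Junb and Nr4a1.

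Fos encodes the defining partner of AP-1 and is nearly silent in many resting cells. It had 9.60 in CD11A+ HSCs of day A and 6.30 in those of day B, against 9.96, 5.81 and 11.72 in CD11A- HSCs of days A, B and C. The arrays thus ordered by sort day, with day C above day A above day B and no overlap, and the subfractions were interleaved. In CD11A- HSCs, Fos was 5.91 log2 units higher on day C than on day B, and over both subfractions 3.73 higher on day A than on day B. No fold is given against day B, since 5.81 lies close to the median of its array, 5.62, where signal is little above background. CD11A+ HSCs averaged 7.95 ± 2.33 (SD, n = 2), against 9.16 ± 3.03 (SD, n = 3) for CD11A- HSCs, which gave a log2 difference of -1.21 with a standard error of 1.84 (limma, adjusted p = 1.00). That difference was 0.065 without CD11A- replicate 1, the array of day C, and 0.44 without CD11A+ replicate 2. Within days A and B it was -0.36 and 0.49, and with sort day as a block 0.065 (standard error 0.27).

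Fosb, a Fos homologue that also needs a Jun partner, followed the same order. It had 5.10 and 3.88 in CD11A+ HSCs of days A and B, against 5.13, 3.90 and 6.85 in CD11A- HSCs of days A, B and C. Arrays of one day differed by 0.03 and 0.02, and only the value of day C was above its array's median over all probesets, so the levels of days A and B lie where most probesets are dim. Jun, which can pair with Fos or with itself, had 8.08 and 6.29 in CD11A+ HSCs of days A and B, against 8.08, 6.77 and 9.65 in CD11A- HSCs of days A, B and C. The arrays of day A were equal and that of day C was 2.97-fold higher than the CD11A- array of day A. On its dimmer probeset Jun had 8.00 and 5.80 in CD11A+ against 7.50, 7.03 and 8.78 in CD11A- HSCs, again with day C above day A above day B, but with differences of 0.50 and -1.23 within days A and B. The limma difference was -0.80 (standard error 0.87) for Fosb and -0.98 (standard error 0.92) for Jun, and -0.025 and -0.24 with sort day as a block.

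The same order of days held for Ier2 and Dusp1, both of which are bright on every array. Ier2 encodes a small nuclear protein of the early response, and had 10.19 and 9.65 in CD11A+ HSCs of days A and B, against 10.81, 9.96 and 11.07 in CD11A- HSCs of days A, B and C. Dusp1 encodes the phosphatase that switches off MAP kinases and so closes the response, and had 10.23 and 9.20 in CD11A+ HSCs, against 10.65, 9.68 and 10.80 in CD11A- HSCs. For both genes the CD11A+ array was the lower on days A and B, by 0.62 and 0.31 for Ier2 and by 0.42 and 0.48 for Dusp1. Day A lay above day B by 0.70 log2 units for Ier2 and by 1.00 for Dusp1, as means of both subfractions.

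In all, 5 of 10 members, Fos, Fosb, Jun, Ier2 and Dusp1, had day C above both day A arrays and these above both day B arrays, and 4.20% of all genes did, while the reverse order was met by 0 members and 3.06% of genes. For the same 5 members both day A arrays lay above both day B arrays, as did 28.2% of all genes, and both day B arrays above both day A arrays in 0 members and 22.4% of genes. CD11A- replicate 1 of day C had the highest value for 8 of 10 members, and CD11A+ replicate 2 of day B the lowest for 9 of 10, counting a tie for Atf3, against 19.0% and 26.5% of all genes. This order was noticed in the data and was not tested. The number of cells sorted ran the opposite way, 1011 on day C, 1274 and 1300 on day A and 2293 and 1803 on day B, and the ages differed as well, so these and the day of sorting cannot be told apart. The granulocyte and macrophage genes, high on day A, had a mean of 5.67 on day C, near the 5.57 of the CD11A- array of day B. For the Gapdh control probesets, the 3-prime signal exceeded the 5-prime signal, a gap that widens with RNA breakage and short amplification products, by 2.70 on day C, 1.91 and 2.22 on day A and 2.76 and 2.80 on day B. For the Actb controls the gap was 2.51 on day C, 1.94 and 2.43 on day A and 2.09 and 1.97 on day B, so that in CD11A- HSCs it ran in the same order of days as Fos. The part of either gap in these results was not tested.

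**Figure D2:**
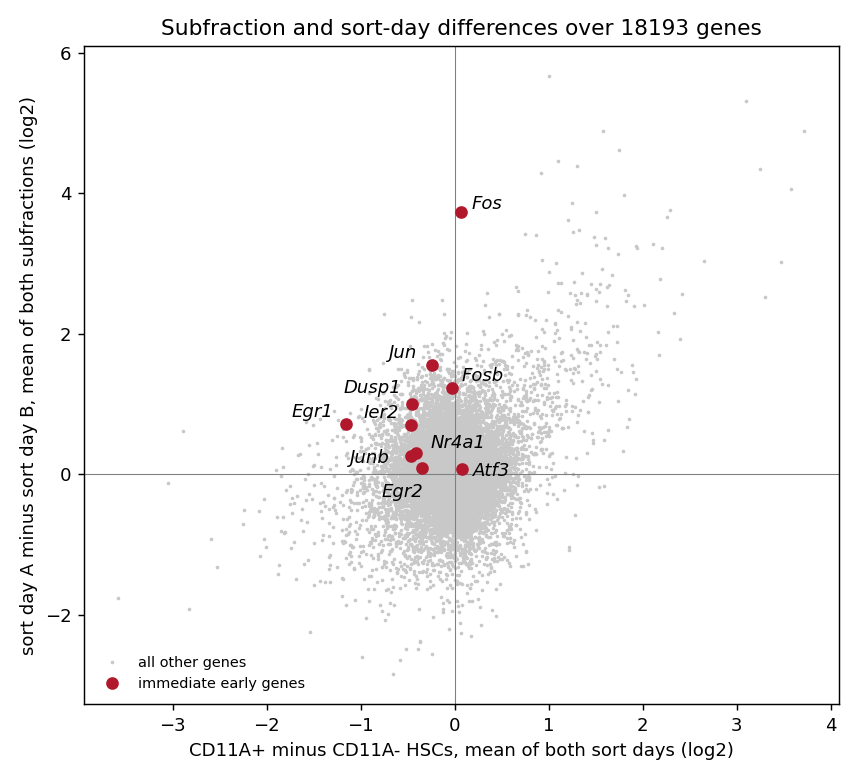
Each point is one of 18193 genes, placed by its log2 difference between CD11A+ and CD11A- HSCs averaged over sort days A and B (horizontal) and between day A and day B averaged over the subfractions (vertical), with immediate early genes in red. Fos lies at 0.065 and 3.73, while Egr1 lies at -1.16 and 0.71.

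The starts of these genes carry short elements through which the response is known to be switched on, and 6 are shown. They belong to members that met the order of days (Fos, Fosb, Jun, Dusp1) or had both CD11A+ arrays below every CD11A- array (Junb, Nr4a1). Dusp1 was also lower in CD11A+ HSCs on both days. Each is the 150 bases before a RefSeq transcript start on GRCm38.p6, in the direction of transcription. Capitals mark TGACG or its reverse complement CGTCA, the core of the cyclic AMP response element, and in Jun the related letters TGACATCA.
Fos (chr12:85473740-85473889, plus strand): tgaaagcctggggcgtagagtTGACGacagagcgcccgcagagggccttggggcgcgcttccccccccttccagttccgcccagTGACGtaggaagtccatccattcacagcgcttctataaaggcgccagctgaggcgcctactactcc
Fosb (chr7:19310046-19310195, minus strand): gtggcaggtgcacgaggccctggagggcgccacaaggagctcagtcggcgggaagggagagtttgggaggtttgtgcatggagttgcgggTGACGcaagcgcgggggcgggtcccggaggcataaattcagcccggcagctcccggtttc
Jun (chr4:95052223-95052372, minus strand): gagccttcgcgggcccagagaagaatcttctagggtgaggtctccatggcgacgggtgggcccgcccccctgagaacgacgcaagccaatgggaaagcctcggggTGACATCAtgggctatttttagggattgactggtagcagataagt
Dusp1 (chr17:26508473-26508622, minus strand): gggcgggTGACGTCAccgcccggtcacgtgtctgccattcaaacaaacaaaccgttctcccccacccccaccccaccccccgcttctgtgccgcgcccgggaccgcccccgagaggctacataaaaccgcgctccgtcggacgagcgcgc
Junb (chr8:84978749-84978898, minus strand): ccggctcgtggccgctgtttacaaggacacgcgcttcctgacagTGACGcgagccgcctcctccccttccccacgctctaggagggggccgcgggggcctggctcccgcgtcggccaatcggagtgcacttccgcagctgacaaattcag
Nr4a1 (chr15:101266696-101266845, plus strand): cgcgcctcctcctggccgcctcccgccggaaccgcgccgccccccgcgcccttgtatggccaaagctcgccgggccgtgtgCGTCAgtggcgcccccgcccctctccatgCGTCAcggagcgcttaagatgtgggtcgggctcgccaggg

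The table of RefSeq windows used here held 8 of the 10 members, all but Egr1 and Ier2, with a single window for 7 and 5 for Egr2. Of the 7, all but Jun held TGACG on either strand (6 of 7), and 13.3% of 32851 windows of this length did. The core begins 129 and 66 bases before the start of Fos, 60 before that of Fosb, 106 before that of Junb and 69 and 40 before that of Nr4a1. The full palindrome TGACGTCA stood only in Dusp1, 143 bases before its start, and in 1.36% of all windows. TGACATCA stood in Jun, 45 bases before its start, and in 2.32% of windows on either strand, and the AP-1 site TGACTCA in none of the 7 and in 2.84% of windows. The elements were found both in members that ordered by day without overlap and in Junb and Nr4a1, which did not. The core also stood in Atf3, which is not shown and spanned only 0.30 log2 units over the 5 arrays. Within each subfraction, though, the arrays of Junb and Nr4a1 ran in the same order of days. Such matches describe the letters and not binding.

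Egr1, a zinc finger factor reported to hold HSCs in quiescence, had the largest log2 difference between the subfractions among the members. It had 10.22 and 10.07 in CD11A+ HSCs of days A and B, against 11.94, 10.67 and 12.03 in CD11A- HSCs of days A, B and C. Both CD11A+ arrays thus lay below every CD11A- array. CD11A+ HSCs averaged 10.15 ± 0.11 (SD, n = 2), against 11.55 ± 0.76 (SD, n = 3) for CD11A- HSCs, a log2 difference of -1.40 (standard error 0.44), or 2.64-fold higher in CD11A- HSCs. The unadjusted p was 0.0189 and the adjusted p was 1.00 from limma, and the exact permutation test, two-sided, gave p = 0.2, where these groups allow no p below 0.1. Within days A and B the difference was -1.72 and -0.60, with sort day as a block it was -1.16 (adjusted p = 0.692 from limma), and of all genes 0.632% had a blocked difference as low or lower. In CD11A- HSCs Egr1 was also higher on days A and C than on day B, by 1.27 and 1.36 log2 units, whereas the CD11A+ arrays of days A and B differed by 0.15.

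Junb, the Jun family member that restrains HSC proliferation in mice, had 7.18 and 7.03 in CD11A+ HSCs of days A and B, against 7.75, 7.38 and 7.80 in CD11A- HSCs of days A, B and C. CD11A+ HSCs averaged 7.11 ± 0.11 (SD, n = 2), against 7.64 ± 0.23 (SD, n = 3) for CD11A- HSCs. By limma they differed by -0.54 log2 units (standard error 0.21), with an unadjusted p of 0.0415 and an adjusted p of 1.00. The exact permutation test, two-sided, gave p = 0.2 for Junb. The difference was -0.57 and -0.35 within days A and B, and -0.46 with sort day as a block. Nr4a1, an orphan nuclear receptor that marks recently activated cells, had 7.40 and 6.90 in CD11A+ HSCs of days A and B, against 7.60, 7.51 and 7.68 in CD11A- HSCs of days A, B and C. The CD11A- arrays lay within 0.17 log2 units of each other and above both CD11A+ arrays. Over all arrays limma gave -0.45 (standard error 0.22) at an adjusted p of 1.00, with -0.20 and -0.61 within days A and B, and the exact permutation test gave p = 0.1, the smallest possible here.

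Egr2 and Atf3 were below the array median on all 5 arrays, where RMA values carry little signal. Egr2, a relative of Egr1, had 4.56 and 4.13 in CD11A+ HSCs of days A and B, against 4.57, 4.82 and 4.45 in CD11A- HSCs, and its dimmer probeset had a difference of the opposite sign (0.40, against -0.27). Atf3, a stress-induced partner of Jun proteins, had 5.48 and 5.18 in CD11A+ HSCs, against 5.18, 5.32 and 5.18 in CD11A- HSCs, a span of 0.30 log2 units that is under the median of all genes.

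Over the members, 9 of 10 had a lower mean in CD11A+ HSCs, with a median difference of -0.68 log2 units, against 51.4% of all genes and a median of -0.01. None passed an adjusted p of 0.05 from limma (0 of 45037 probesets, 0.00%, passed in either direction), and at an unadjusted p under 0.05 Egr1 and Junb were lower, 2 of 10 members against 3.58% of all genes, and 0 members were higher against 1.48%. Both CD11A+ arrays lay below every CD11A- array for 3 of 10 members, Egr1, Junb and Nr4a1, and for 10.4% of all genes, and above every CD11A- array for 0 members and 8.56% of genes. Within both sort days the CD11A+ array was lower for 7 of 10 members, against 28.0% of all genes. It was higher for 0 members, against 25.3%. Of the 7, Fosb differed by only -0.03 and -0.02 on days A and B, and Egr2 by -0.01 and -0.69. The dimmer probeset of Egr2 was higher in CD11A+ HSCs on both days, by 0.55 and 0.67. The members' medians within days A and B were -0.28 and -0.42, against 0.02 and -0.03 over all genes. When sort day was a block, the members' median was -0.38 and 8 members were lower, Fos and Atf3 being the exceptions, and 1 member, Egr1, had an unadjusted p under 0.05 from limma, against 4.74% of all genes lower. The median of all arrays, -0.68, became -0.38 when CD11A- replicate 1 was left out, -1.07 for CD11A+ replicate 1 and -0.17 for CD11A+ replicate 2. Cd34 and Flt3, higher, and Slamf1, lower in CD11A+ HSCs on both days, moved with this difference, and their part in it was not tested.

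**Figure D3:**
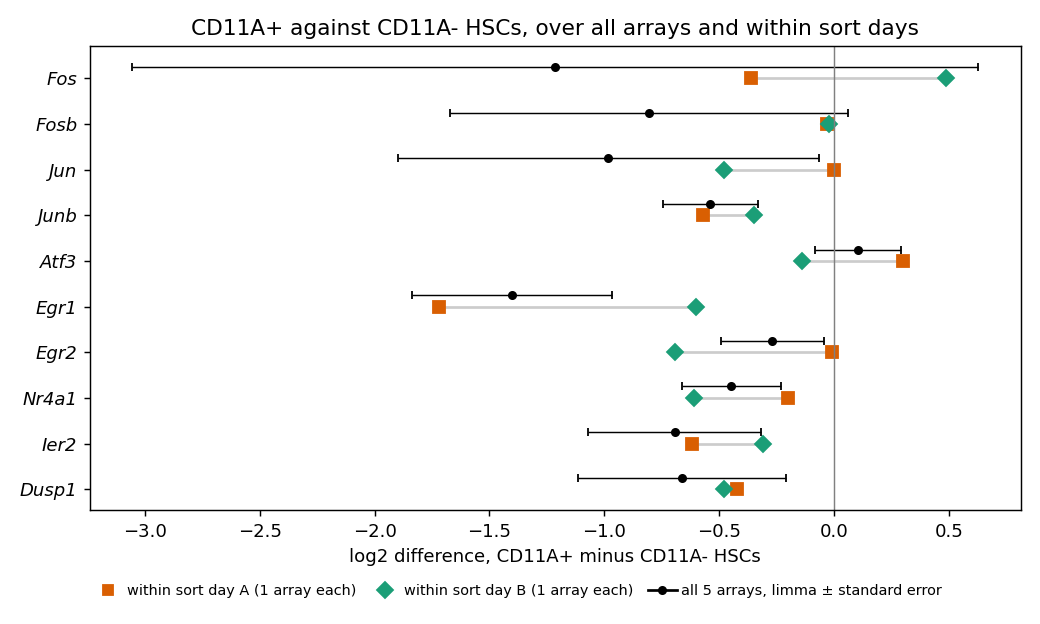
The log2 difference of CD11A+ minus CD11A- HSCs (horizontal axis) for each immediate early gene, within sort day A (orange squares, 1 array each), within sort day B (green diamonds, 1 array each) and over all 5 arrays from limma (black, bars are standard errors). Egr1, Junb, Nr4a1, Ier2 and Dusp1 lie left of 0 by 0.20 or more on both days, while Fos and Atf3 change sign between days.

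Genes that act with or around the immediate early genes had medians nearer 0. None of the measured genes in 6 further lists passed an adjusted p of 0.05 from limma. For comparison, 51.4% of all genes had a lower mean in CD11A+ HSCs. At an unadjusted p under 0.05 from limma, 3.58% of all genes were lower and 1.48% higher. Of 13 AP-1 partners, 8 had a lower mean in CD11A+ HSCs, with a median difference of -0.08, and 1 had an unadjusted p under 0.05. That was Maff, a small Maf factor, which had 5.81 and 6.86 in CD11A+ HSCs of days A and B, against 7.46, 7.24 and 7.56 in CD11A- HSCs, a difference of -1.09 (standard error 0.33, exact permutation p = 0.1). Batf, an AP-1 factor of lymphoid cells, had 9.25 and 9.38 in CD11A+ against 8.81, 9.20 and 8.94 in CD11A- HSCs, the highest difference of the list among genes of one sign on both days (0.33).

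Of 23 further immediate early factors, 14 had a lower and 8 a higher mean in CD11A+ HSCs (median -0.08), and 1 had an unadjusted p under 0.05. Gadd45g, a stress sensor, had 7.16 and 6.30 in CD11A+ HSCs of days A and B, against 7.48, 7.54 and 7.64 in CD11A- HSCs, with differences of -0.32 and -1.24 within the days. Nr4a2, a relative of Nr4a1, had 6.87 and 6.52 in CD11A+ HSCs, against 6.03, 5.74 and 6.81 in CD11A- HSCs, and the CD11A+ array was higher on each day, by 0.84 and 0.78.

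Of 22 feedback regulators, which damp kinases, transcripts or the factors themselves, 18 had a lower and 4 a higher mean in CD11A+ HSCs, their median being -0.17 (-0.38 and -0.03 within days A and B), and 2 were lower and 1 higher at an unadjusted p under 0.05. The lower ones were Nab2, a corepressor of EGR factors, at 6.84 and 6.73 in CD11A+ against 7.39, 7.16 and 7.69 in CD11A- HSCs, and Trib1, a pseudokinase, at 5.63 and 5.63 in CD11A+ against 6.23, 5.97 and 6.18 in CD11A- HSCs. The higher one was Tnfaip3, an inhibitor of NF-kB signalling, at 8.85 and 8.76 in CD11A+ against 7.92, 8.17 and 8.49 in CD11A- HSCs. Of the genes outside this count, Dusp4, a nuclear phosphatase of MAP kinases, had 6.97 and 9.58 in CD11A+ HSCs of days A and B, against 8.85, 9.81 and 8.81 in CD11A- HSCs, and Dusp6, a cytoplasmic one, had 8.84 and 9.73 in CD11A+ against 8.38, 9.0 and 8.32 in CD11A- HSCs. Dusp6 was higher in CD11A+ HSCs by 0.46 and 0.73 within the days, the opposite sign to Dusp1 and Dusp4.

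Upstream of the response, no gene of either list had an unadjusted p under 0.05. Of 13 measured serum response and CREB factors, 9 had a lower mean in CD11A+ HSCs (median -0.16), and their coactivators Crtc2 and Crtc3 differed by -0.51 and 0.23. Of 13 measured MAP kinases, 8 had a lower mean with a median of -0.04, and Map2k1 and Map2k6, kinases of the ERK and p38 arms, differed by -0.30 and 0.52. Of 12 measured heat shock genes, 9 had a higher mean with a median of 0.07. Hspa1b, an inducible chaperone, was the only one with an unadjusted p under 0.05, at 5.47 and 6.03 in CD11A+ HSCs of days A and B against 6.27, 6.38 and 6.63 in CD11A- HSCs, while the mitochondrial chaperone Hspd1 differed by 0.44. The order of day C above day A above day B was met in these lists by Klf4, Zfp36l1, Ep300 and Mapkapk2 alone. Each was the only 1 of its list, and 4.20% of all genes met this order.

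**Figure D4:**
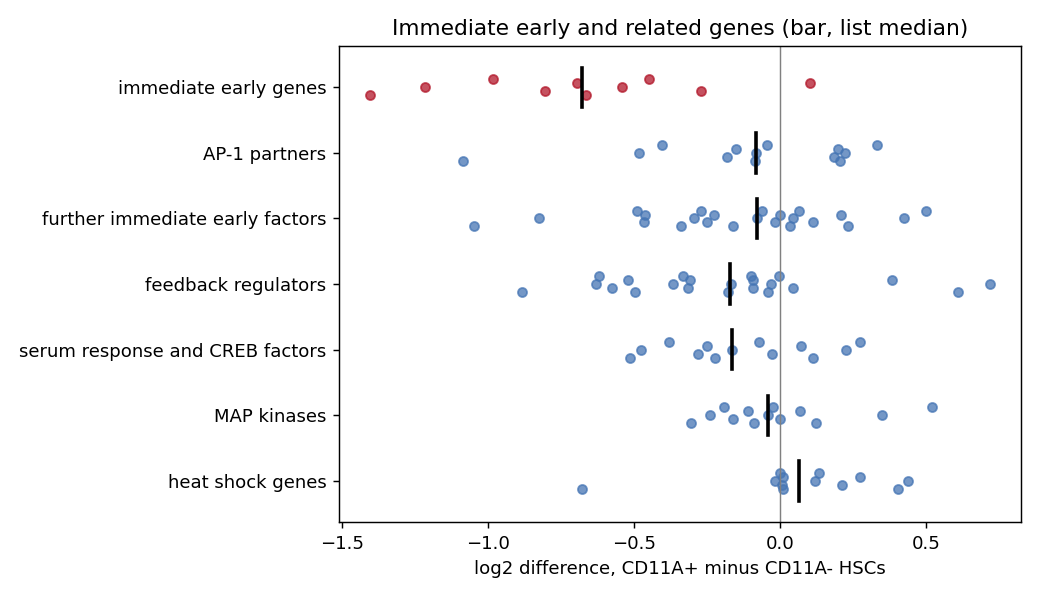
The log2 difference of CD11A+ minus CD11A- HSCs (horizontal axis) for each gene of the immediate early list (red) and of 6 related lists (blue), with list medians as black bars; vertical offsets within a row only separate points. The medians run from -0.68 for the immediate early genes to 0.07 for heat shock genes.

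Among 16206 genes outside all lists, those whose profile over the 5 arrays was nearest to the mean profile of the 10 members were Ccdc120, Nr3c1, Ccdc69, Rbm12b1, Zfp825 and Hoxb5os. Likeness was the root mean square distance between centred log2 values, which ran from 0.11 for Ccdc120 to 0.17 for Hoxb5os. Nr3c1, the glucocorticoid receptor, had 9.65 and 8.66 in CD11A+ HSCs of days A and B, against 9.87, 8.82 and 10.23 in CD11A- HSCs of days A, B and C. That its array of day C was the highest follows from how these genes were picked. With 5 arrays many profiles can lie this close.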

How the data were processed

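RNA of CD11A+ and CD11A- HSCs, amplified in 2 cycles, was measured on Affymetrix mouse arrays, and the values deposited by the authors are on the log2 scale, 1 per probeset, and come from RMA (submitters' processing notes). For RMA, the version is not given in the sources used here, nor is the set of arrays it was run on. For its heat maps the study also set the arrays against a large panel of public arrays on the Gene Expression Commons. The same values stood in both deposited tables (0 values differed), and 40 further columns of other samples in one of them were not used. The columns used were matched to samples by their titles.

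Of 45101 probesets, 64 were controls and were removed. GEO's annotation assigned 34945 of the others to 1 gene, and the brightest of a gene's probesets on average stands for it. The comparison of subfractions used lmFit and eBayes of limma 3.58.1 (R 4.3.3) on all 45037 probesets, without a block, with Benjamini-Hochberg adjustment. It was also run on simulated data with independent noise on each array and no sort-day effect. Such data cannot check it where arrays share a sort day. Exact permutation tests were used for single values. The study's methods name no test for this comparison. Members and gene lists were chosen with earlier results of these data known, so lists carry no p. Named from each related list are the genes with the lowest and highest difference among those with one sign on both sort days and a mean of at least 6, and others are named where a count is 5 or fewer. Sort days come from the labels. Deviations from the group means correlated at 0.56 within day A and 0.59 within day B. Alternatives changed the blocking (sort day, fixed or random, or replicate number), the scaling (median centring or quantile), the table, the arrays (weighted, or each left out), the variance prior (trend), the probesets (dim ones dropped, or averaged per gene) and the test (the methods' t-test, named in a legend for another comparison). The fixed sort day block leaves 1 residual degree of freedom.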

Additional observations from a re-analysis of the deposited data

Results flagged for a closer look

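For 2 members the sign of the difference between CD11A+ and CD11A- HSCs was opposite on the sort days, each day having 1 array per subfraction, and the difference between days was not tested. Fos differed by -0.36 within day A and by 0.49 within day B. Atf3 differed by 0.30 within day A and by -0.14 within day B.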

How the results depend on the processing

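Over 147 pairs of a member and an alternative, 142 kept the direction of the difference and none passed an adjusted p of 0.05. The exceptions were Fos, at 0.065 with sort day as a fixed block, 0.065 without CD11A- replicate 1 and 0.44 without CD11A+ replicate 2 (-2.89 to 0.44 over the arrays left out), Egr2, at 0.063 as the mean of its probesets, and Atf3, at -0.047 without CD11A+ replicate 1 (-0.047 to 0.25 over the arrays left out). Not all pairs are separate checks. The other table, the trend and the dropping of dim probesets could not change a direction. The fixed sort day block gave the same differences as leaving out CD11A- replicate 1, and the replicate block those without CD11A- replicate 3. The number of probesets past the threshold was 0 to 20 with each array left out, 20 being without CD11A+ replicate 2, and 19 for the methods' t-test at p under 0.001, which after Benjamini-Hochberg called 0. At an unadjusted p under 0.05, limma had 1261 of 45037 probesets lower and 656 higher. By the brightest probeset of each gene, the shares were 3.58% and 1.48% of all genes. With each array left out, the median difference of the members ran from -1.07 to -0.17 and the number lower in CD11A+ HSCs from 8 to 10. The labels put equal replicate numbers on different sort days, and with the replicate number as a block the median was -1.02, with 9 members lower. Deviations of arrays with number 1 correlated at 0.12, and those with number 2 at -0.56, which mirrors day A because 2 arrays deviate equally from their mean. The count of members with both CD11A+ arrays below every CD11A- array, 3, became 7 without CD11A- replicate 3 and 8 without CD11A+ replicate 1, settings chosen after seeing the data, as were those for the sort-day counts. With median centring, 5 and not 7 members were lower on both days, and with probesets averaged per gene 6. Averaging also left 8 and not 9 members with a lower mean in CD11A+ HSCs.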

Other observations

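Some related genes, named after their values were seen, spanned 2.21 to 3.44 log2 units over the 5 arrays. Klf4, a factor that slows the cell cycle, had 7.12 and 4.95 in CD11A+ HSCs of days A and B, against 5.66, 4.74 and 8.18 in CD11A- HSCs of days A, B and C, the same order of days as Fos. Sik1, a kinase that restrains CREB coactivators, had 7.17 and 5.04 in CD11A+ HSCs, against 7.98, 5.14 and 7.05 in CD11A- HSCs, so that day A lay above day B and day C near day A. Klf2 had 4.95 and 5.24 in CD11A+ HSCs, against 5.68, 5.58 and 7.16 in CD11A- HSCs. It was highest on day C, and both CD11A+ arrays lay below every CD11A- array. Its values other than that of day C lay near or below the array medians.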
